A study of Homo sapiens with 18 samples.

Results

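Glutathione transferases join the tripeptide glutathione to electrophiles, or use it to reduce peroxides, and so consume the pool that the cysteine donor NACET feeds. The 10 genes described here are MGST1, MGST2 and MGST3 of the microsomal (membrane-bound) family, GSTP1, GSTO1, GSTA4, GSTM3, GSTM4 and GSTZ1 of the cytosolic family, and GSTK1 of the kappa class, found in mitochondria and peroxisomes. They were taken by symbol from count files that list 23411 gene symbols. All 10 were found in the 18 samples and passed the filter on low counts in every comparison. In control cells MGST1 was 1.72-fold higher with NACET, which passed the limits on the adjusted p and the fold change. That call was lost in 4 of the 6 fits that left out 1 sample, in which calls among all genes also fell, from 376 to between 31 and 77. With H2O2 MGST1 was 1.51-fold higher in control cells, which passed the adjusted p and fell just short of the fold limit. It was 2.27 to 3.39-fold lower in NRF2 ΔC than in control cells. GSTM4 was 2.69 to 3.52-fold lower in NRF2 ΔC cells, and GSTM3 was 1.79-fold lower there with NACET, the one condition in which it passed both limits. The other members did not pass the limits in any comparison of the main analysis.

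The cells were ARPE-19, a line of human retinal pigment epithelium, and the agent NACET is N-acetylcysteine as an ethyl ester. Both derived lines had been transduced with lentiviral particles for Cas9. The control cells received no gRNA, whereas NRF2 ΔC cells, a single clone, received one against the last exon of NFE2L2, which left both alleles with a premature stop codon and the protein without its C-terminal end. Each line was left untreated or received NACET at 1 mM or H2O2 at 0.2 mM, which makes 6 groups of 3 samples. The sample labels give 2 h of treatment after 22 h in 1 % serum, while the series' design text gives 8 h after 40 h in 10 % serum, and the published account of this dataset also gives 8 h. Any difference between the lines also carries whatever else separates 1 clone from the control population, and these cannot be told apart.

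NRF2 is a transcription factor that is held at a low level by KEAP1-directed degradation and accumulates when cysteines of KEAP1 are modified. With a small MAF partner it binds antioxidant response elements (AREs), and its known targets include enzymes that make, use and recycle glutathione. Retinal pigment epithelium is exposed to light, oxygen and lipid peroxides from shed photoreceptor membranes, and transferases with peroxidase activity act on such products.

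To show where ARE letters lie near these genes, the promoter windows of RefSeq (GRCh38.p14, from 250 bases before to 50 bases after each gene start) were searched on both strands for the core TGACNNNGC. A window was found for 9 of the 10 genes, all except MGST2. The core was present in 4 of the 11 windows of these genes, 1 each for 4 genes, and in 13.3 % of all 35116 promoter windows. MGST1 has 3 listed starts, of which 1 has a match, 31 bases into the transcript. GSTP1 has 1 match that begins 66 bases before its start, GSTA4 has 1 that begins 9 bases before, and GSTO1 has matches that begin 226 and 161 bases before. The 5 matches are shown on the gene's strand, with the core in capitals and 10 bases on either side.
MGST1, chr12:16347135-16347163, plus strand: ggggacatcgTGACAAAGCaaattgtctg
GSTP1, chr11:67583736-67583764, plus strand: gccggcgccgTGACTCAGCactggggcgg
GSTO1, chr10:104254656-104254684, plus strand: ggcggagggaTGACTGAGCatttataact
GSTO1, chr10:104254721-104254749, plus strand: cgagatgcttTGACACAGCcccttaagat
GSTA4, chr6:52995275-52995303, minus strand: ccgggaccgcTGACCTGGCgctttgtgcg
The GSTP1 match overlaps a match to the AP-1 letters TGANTCA, which read on either strand there. Those letters were present in 7.71 % of all windows and in no other member's window. No match to the ARE core was found in the windows of GSTM3, GSTM4, MGST3, GSTK1 or GSTZ1, which says only that these letters are not in these windows.

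The values are read counts per gene, given here as CPM (a gene's count scaled to a library of 1000000 counts on genes, with TMM-normalised library sizes). Counts on genes ranged from 16673306 to 25951154 per sample, and the 10 members together took from 0.0845 to 0.147 % of them. The least counted member in any sample was GSTM4 with 53 counts, and the most counted was GSTP1 with 16390. NFE2L2 mRNA, the edited gene, was at 124 ± 2.44 CPM in untreated control and 126 ± 1.89 CPM in untreated NRF2 ΔC cells (SD, n = 3 each), and these counts span all of its exons rather than the edited end. NQO1, a well known NRF2 target, was at 228 ± 92.9 CPM in untreated control and 14.0 ± 2.34 CPM in untreated NRF2 ΔC cells. Of 12 retinal pigment epithelium markers 5 reached 10 CPM in some sample (MITF, OTX2, TIMP3, KRT8 and KRT18), while RPE65, the retinoid isomerase, never exceeded 1 count, and RLBP1 and TYR stayed below 1 CPM. The summed CPM of these 12 markers was 1832 to 2042 in untreated control cells, 1382 to 1492 with NACET and 1259 to 1394 with H2O2. The NRF2 ΔC samples had 1568 to 1794, 1316 to 1466 and 1183 to 1263 in the same order. Of 2 leukocyte markers CD68 was at 78.5 CPM or more in every sample while PTPRC had at most 1 count, and of 3 fibroblast markers COL1A1 ranged from 27.0 to 174 CPM while COL1A2 had at most 1 count. Of 3 photoreceptor markers PDE6B differed between the lines and set the summed level, which was 3.98 to 6.91 CPM in control and 0.04 to 0.31 CPM in NRF2 ΔC cells. The part of these differences in the results below was not tested. In bulk samples, fewer cells with a transcript and less of it per cell cannot be told apart.

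**Figure D1:**
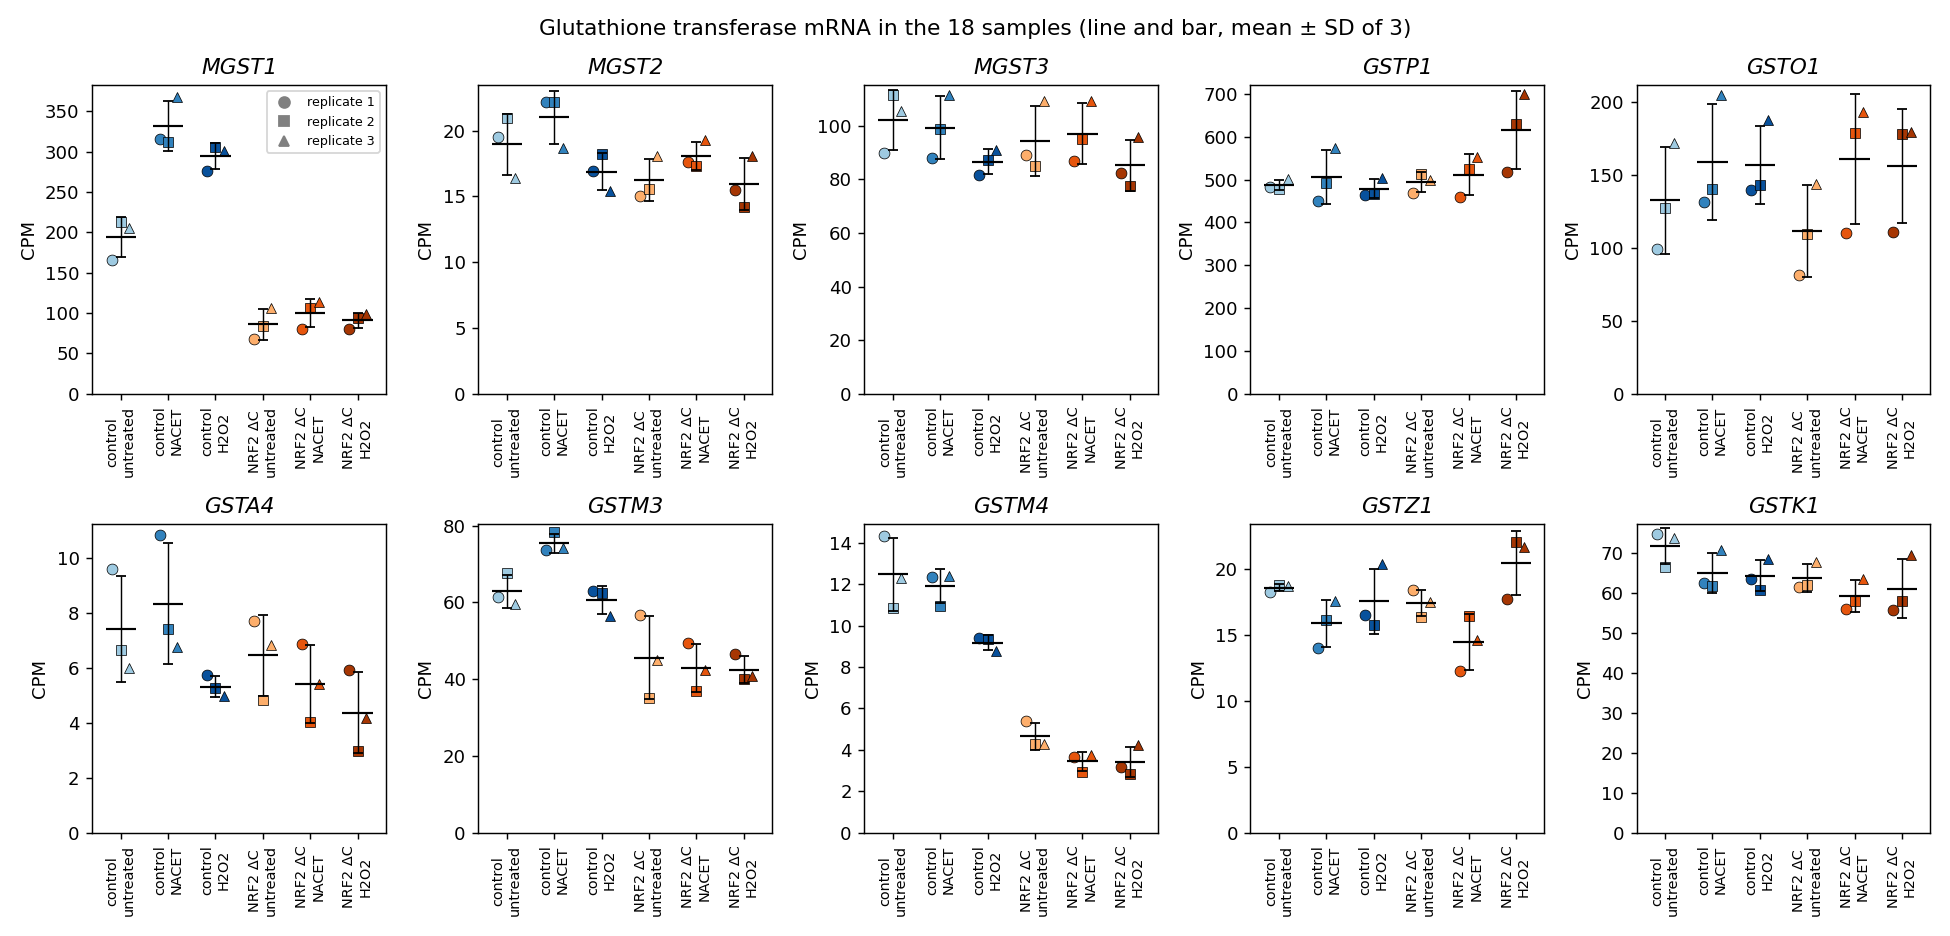
CPM of each member (y axis, each panel from 0) in the 6 groups (x axis), with a symbol per replicate number and a line and bar for the mean ± SD of 3 samples. MGST1 was at 166 to 368 CPM in the 9 control samples and at 68.3 to 114 CPM in the 9 NRF2 ΔC samples.

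To compare members with each other, CPM were divided by the length in kilobases of the canonical transcript in GRCh37 (the hg19 build used for mapping). On this scale GSTP1, the pi class enzyme of many epithelia, had the highest level in all 6 groups, at 657 ± 16.3 CPM per kilobase in untreated control cells (SD, n = 3). MGST1 at 211 ± 26.9 and GSTO1 at 163 ± 45.1 CPM per kilobase came next there, and their ranges overlapped. With NACET, MGST1 stood at 359 ± 33.7 CPM per kilobase in control cells and its lowest sample lay above the highest of GSTO1, and the same held with H2O2 (318 ± 17.2 against 193 ± 33.0). Among the NRF2 ΔC groups GSTO1 was the second and MGST1 the third in every condition, with overlapping ranges when untreated (137 ± 38.6 and 93.0 ± 20.3) and with ranges apart under either treatment.

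MGST3, at 88.2 ± 9.62 CPM per kilobase in untreated control cells, GSTK1 at 69.6 ± 4.35 and MGST2 at 25.6 ± 3.15 followed in this order in all groups. The ranges of MGST3 and GSTK1 overlapped only in NRF2 ΔC cells with H2O2. GSTZ1 (15.7 ± 0.223) and GSTM3 (15.3 ± 1.05) had overlapping ranges in untreated control cells. The lowest levels belonged to GSTM4 (8.97 ± 1.26) and GSTA4 (5.97 ± 1.56), and GSTM4 took the last place in all NRF2 ΔC groups. The order rests on the length used. With all annotated exons joined, untreated control cells had 276 ± 6.86 CPM per kilobase for GSTP1, 78.4 ± 21.7 for GSTO1 and 26.2 ± 3.34 for MGST1, whose annotated exons span 7441 bases against 925 in its canonical transcript.

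**Figure D2:**
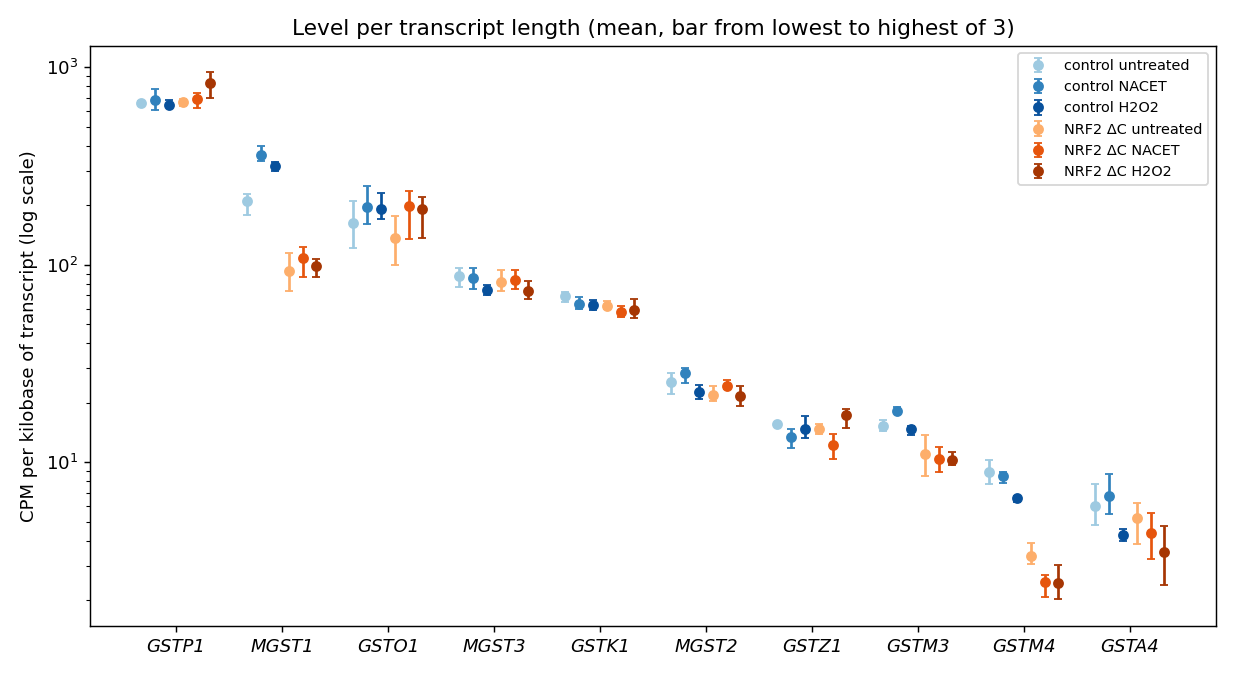
Level of each member in CPM per kilobase of canonical transcript (y axis, log scale), ordered by the mean in untreated control cells (x axis), with a point for the mean and a bar from the lowest to the highest of 3 samples in each group. GSTP1 stayed above all other members in each group, and MGST1 and GSTM4 were the members with the widest gap between the lines.

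MGST1 encodes a trimeric enzyme of the endoplasmic reticulum and outer mitochondrial membrane that conjugates electrophiles and reduces lipid hydroperoxides. The gene lies on the plus strand of chromosome 12 (GRCh37, chr12:16500076-16762193). In untreated control cells the 3 samples had 166, 212 and 206 CPM. With NACET they had 316, 312 and 368 CPM, all above the untreated samples. The log2 fold change was 0.78 ± 0.13 (standard error), with an adjusted p of 0.0217 (edgeR's quasi-likelihood test, adjusted by Benjamini-Hochberg over all genes). A gene is called a DEG here where the adjusted p is under 0.05 and the log2 fold change is 0.6 or more in size. MGST1 was the only DEG among the 10 members with NACET in control cells, where 2.75 % of the 13696 genes tested were DEGs. The direction was the same in 3 of 3 pairs of samples with the same replicate number, with log2 ratios from 0.56 to 0.92. The call was lost in 4 of the 6 fits that left out 1 sample, with an adjusted p from 0.0581 to 0.111 (edgeR). These were the fits without replicate 1 or 2 of the untreated or of the NACET group. They had 58, 35, 77 and 31 DEGs among all genes, against 376 in the main fit. The MGST1 call was kept without replicate 3 of either group, where 190 and 337 genes were DEGs.

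With H2O2, MGST1 was at 276, 306 and 301 CPM in control cells, again above the 3 untreated samples. The log2 fold change was 0.5987 ± 0.11 with an adjusted p of 0.0146 (edgeR), so the change passed the test and missed the fold limit of 0.6 by its last digits. By both limits 0 of the 10 members were DEGs of H2O2 in control cells with edgeR and with DESeq2, while 6.33 % of 13691 genes were. An unadjusted p under 0.05 was found for 4 members and for 30.7 % of all genes. By the adjusted p alone 1 member passed, against 13.2 % of all genes. Same-numbered samples of a line moved together, and with the number as a block the MGST1 value was 0.60 ± 0.05 and it was a DEG, as were 10.2 % of genes. Without untreated replicate 2 or 3, or without H2O2 replicate 1, it was also a DEG, with values of 0.67, 0.64 and 0.64.

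In NRF2 ΔC cells the MGST1 values were 68.3, 83.9 and 106 CPM untreated, 80.0, 106 and 114 CPM with NACET, and 80.5, 93.8 and 99.0 CPM with H2O2. These 3 groups overlapped each other. The change was 0.20 ± 0.19 (log2) for NACET and 0.06 ± 0.18 for H2O2 (adjusted p of 0.634 and 0.841, edgeR). With the block the NACET value was 0.21 ± 0.07 and passed the adjusted p (0.0329, edgeR) without reaching the fold limit.

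Whether the treatments moved MGST1 more in control than in NRF2 ΔC cells was tested as an interaction over 12 samples. The difference of the log2 fold changes was 0.58 ± 0.24 for NACET and 0.52 ± 0.22 for H2O2, both larger in control cells. Neither passed (adjusted p of 0.9999 and 0.835, edgeR), and these tests called 0.0643 % and 0.0214 % of genes. By edgeR and by DESeq2 0 members passed, and in each of the 2 tests 1 member, MGST1, had an unadjusted p under 0.05 with edgeR, beside 1.63 % and 5.76 % of all genes. With the replicate number within each cell line as a block, the same differences were 0.58 ± 0.10 and 0.51 ± 0.11 and MGST1 passed in both (adjusted p of 0.00675 and 0.00743, edgeR), as did 0.9 % and 6.91 % of all genes. MGST1 was the only member that passed either interaction with the block.

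**Figure D3:**
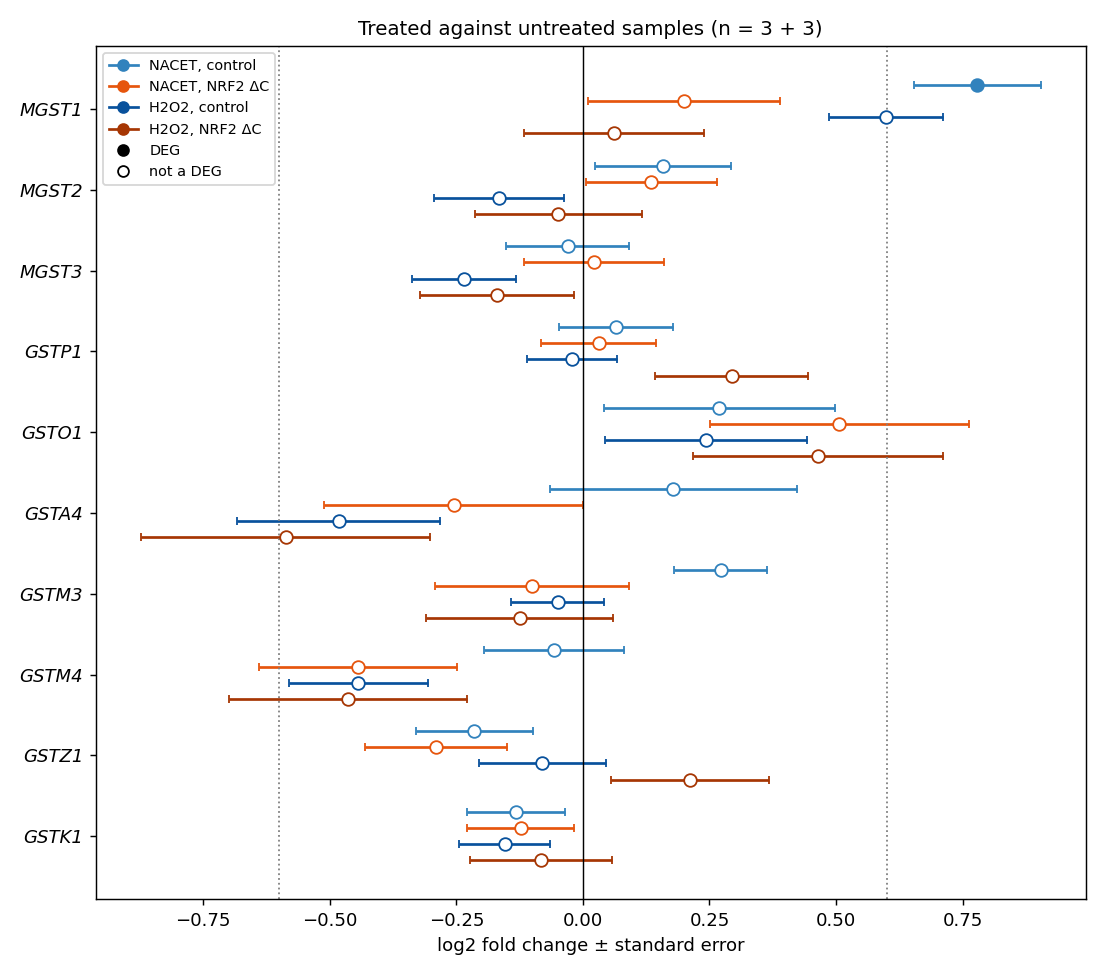
Log2 fold change of treated against untreated samples (x axis) for each member (y axis) in both cell lines, with bars of 1 standard error derived from the edgeR test and n = 3 + 3 samples. Filled points are DEGs and dotted lines mark the fold limit of 0.6. MGST1 with NACET in control cells, at 0.78, is the only filled point.

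Between the lines, the NRF2 ΔC samples had less MGST1 in each condition, and the highest of the 9 NRF2 ΔC samples (114 CPM) lay below the lowest of the 9 control samples (166 CPM). On the log2 scale NRF2 ΔC differed from control cells by -1.18 ± 0.17 untreated, -1.76 ± 0.15 with NACET and -1.71 ± 0.13 with H2O2, with adjusted p of 0.00535, 0.000505 and 0.000126 (edgeR). Without replicate 2 of untreated NRF2 ΔC cells the first of these had an adjusted p of 0.0522 at a value of -1.16.

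In these comparisons 2, 3 and 2 of the 10 members were DEGs, all of them lower in NRF2 ΔC cells, beside 3.12 %, 3.86 % and 4.2 % of genes that were lower DEGs and 0.729 %, 0.895 % and 1.41 % that were higher DEGs. The median log2 fold change over the members was -0.21 untreated, -0.21 with NACET and -0.09 with H2O2, and over all genes tested 0.013, -0.002 and 0.006.

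GSTM4 and GSTM3 are mu class enzymes whose genes lie within 1 cluster on chromosome 1 (GRCh37, chr1:110198721-110208118 on the plus strand and chr1:110276554-110283660 on the minus strand). GSTM4 had 14.4, 10.8 and 12.3 CPM in untreated control cells and 5.41, 4.27 and 4.29 CPM in untreated NRF2 ΔC cells. With NACET it had 12.4, 11.0 and 12.4 CPM in control and 3.68, 2.91 and 3.74 CPM in NRF2 ΔC cells, and with H2O2 9.43, 9.34 and 8.78 CPM against 3.19, 2.82 and 4.23 CPM. All 9 NRF2 ΔC samples lay below all 9 control samples. On the log2 scale the differences were -1.43 ± 0.18, -1.82 ± 0.16 and -1.44 ± 0.20 for untreated, NACET and H2O2 (adjusted p of 0.00283, 0.000642 and 0.00347, edgeR). GSTM4 stayed a DEG in all 18 fits that left out 1 sample. No treatment made it a DEG within a line. With the block it was lower with H2O2 in control cells (-0.43 ± 0.10, adjusted p = 0.00267, edgeR). In NRF2 ΔC cells it was then lower with NACET (-0.45 ± 0.16) and with H2O2 (-0.47 ± 0.19), with adjusted p of 0.0355 and 0.0338 (edgeR). Without the block the adjusted p of these 3 changes was 0.0673, 0.278 and 0.22 (edgeR).

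GSTM3 had 61.4, 67.7 and 59.5 CPM in untreated control cells, 73.6, 78.3 and 74.1 CPM with NACET and 63.0, 62.5 and 56.4 CPM with H2O2. The NRF2 ΔC samples had 56.6, 35.0 and 45.1 CPM untreated, 49.3, 37.01 and 42.3 CPM with NACET and 46.6, 40.1 and 40.8 CPM with H2O2. Within each condition the 2 lines did not overlap. Under NACET NRF2 ΔC differed from control cells by -0.84 ± 0.13 on the log2 scale and GSTM3 was a DEG (adjusted p = 0.00835, edgeR), although not without replicate 2 of NACET-treated control cells (adjusted p = 0.0501, edgeR). With H2O2 the value of -0.53 ± 0.12 passed the adjusted p (0.0318, edgeR) and not the fold limit. Untreated, it was -0.46 ± 0.17 with an adjusted p of 0.268 (edgeR), and GSTM3 was a DEG there in 1 fit, without replicate 1 of NRF2 ΔC cells (-0.66). The treatments did not change GSTM3 beyond the limits in either line, with a log2 fold change of 0.27 ± 0.09 for NACET in control cells (adjusted p = 0.146, edgeR). With the block that value was 0.27 ± 0.06 (adjusted p = 0.000131, edgeR), which passed the adjusted p and not the fold limit.

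Reads of mu class genes can be hard to assign. Of all 50-base stretches in the GSTM4 transcript 18.9 % also occur in another glutathione transferase transcript, mostly GSTM1, and for GSTM3 none do. Reads that mapped to several places were left out by the authors, so reads from such stretches may be missing from the GSTM4 counts, which are uncertain in this respect. Since strand was not used, reads of overlapping genes on opposite strands cannot be told apart. GSTM1 had group means from 16.6 to 19.1 CPM with no DEG call between the lines, while GSTM2 was lower in NRF2 ΔC cells in all 3 conditions (-0.99 ± 0.21, -1.20 ± 0.13 and -1.25 ± 0.21 on the log2 scale, adjusted p of 0.033, 0.00199 and 0.00718, edgeR). For GSTM1 and GSTM2 the shared stretches make up 58.3 % and 46.1 %. With the rows of GSTM1 to GSTM5 summed before the fit, the log2 fold change was -0.53 ± 0.14 untreated (adjusted p = 0.0834, edgeR), -0.80 ± 0.10 with NACET and a DEG (adjusted p = 0.00306, edgeR), and -0.56 ± 0.11 with H2O2 (adjusted p = 0.0167, edgeR, under the fold limit). GSTM3 weighs most in this sum, at 62.9 CPM beside 12.5 CPM for GSTM4 in untreated control cells. The sum therefore says little about GSTM4 alone.

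**Figure D4:**
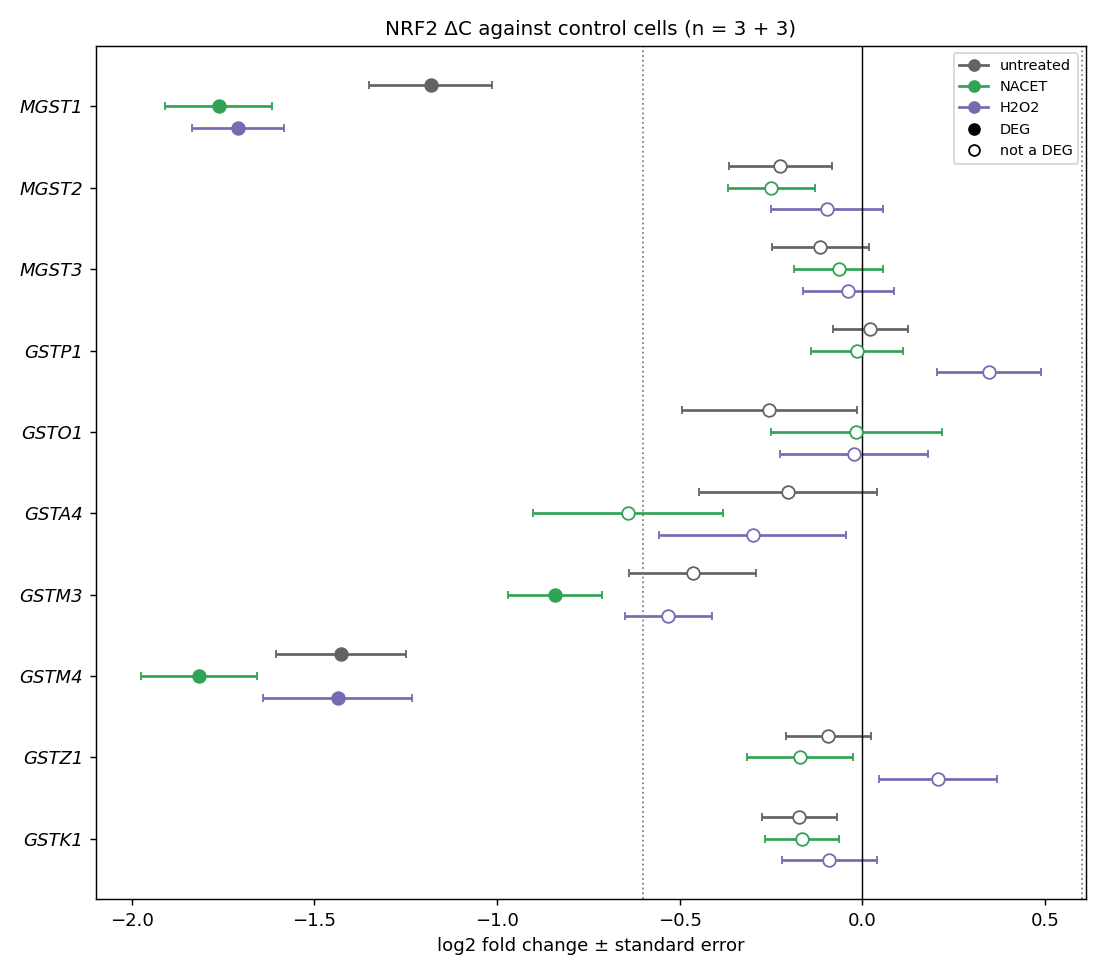
Fold change (log2) of NRF2 ΔC against control cells (x axis) for each member (y axis) in 3 conditions, with bars of 1 standard error derived from the edgeR test and n = 3 + 3 samples. Filled points are DEGs and dotted lines mark the fold limit of 0.6. MGST1 and GSTM4 are filled in all 3 conditions and GSTM3 with NACET alone.

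The other microsomal members, MGST2 and MGST3, are membrane enzymes related to the leukotriene synthase and have transferase and peroxidase activity. MGST2 ranged from 14.2 to 22.2 CPM over the 18 samples and MGST3 from 77.4 to 111 CPM. Neither was a DEG in any comparison. MGST3 with H2O2 in control cells had a log2 fold change of -0.24 ± 0.10 (adjusted p = 0.159, edgeR). With the block this was -0.23 ± 0.06 and passed the adjusted p (0.0026, edgeR), not the fold limit. In control cells MGST2 was at 19.0 ± 2.33 CPM untreated, 21.0 ± 2.01 with NACET and 16.9 ± 1.40 with H2O2, and MGST3 was at 102 ± 11.1, 99.3 ± 11.7 and 86.6 ± 4.75 CPM in the same order (SD, n = 3 each). The NACET samples of MGST2 all lay above its H2O2 samples, and the other groups of each gene overlapped. Between the lines their log2 fold changes ran from -0.25 to -0.10 for MGST2 and from -0.12 to -0.04 for MGST3, beside -1.18 or lower for MGST1.

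GSTP1 had the highest count of the members in every sample. Its values were 484, 477 and 500 CPM in untreated control cells, 451, 491 and 575 CPM with NACET and 465, 467 and 505 CPM with H2O2, and these groups overlapped. The clone had 470, 514 and 500 CPM untreated, 460, 524 and 552 CPM with NACET and 517, 630 and 700 CPM with H2O2. The H2O2 samples of NRF2 ΔC cells thus lay above the untreated samples of the same line, with a log2 fold change of 0.29 ± 0.15 (adjusted p = 0.228, edgeR). With the block this change was 0.28 ± 0.10 and passed the adjusted p (0.018, edgeR), not the fold limit. Against H2O2-treated control cells the value was 0.35 ± 0.14 (adjusted p = 0.18, edgeR), and between the untreated lines it was 0.02 ± 0.10.

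GSTO1, of the omega class, which removes glutathione from protein thiols and reduces dehydroascorbate, spread widely between replicates. It had 98.8, 127 and 172 CPM in untreated control cells, 132, 140 and 204 CPM with NACET and 139, 143 and 188 CPM with H2O2. The NRF2 ΔC samples had 81.0, 110 and 144 CPM untreated, 110, 179 and 193 CPM with NACET and 111, 178 and 179 CPM with H2O2. In all 6 groups the highest value was that of the sample numbered 3 and the lowest that of the sample numbered 1. The log2 fold change was 0.27 ± 0.23 for NACET and 0.24 ± 0.20 for H2O2 in control cells. The NRF2 ΔC values were 0.51 ± 0.26 and 0.46 ± 0.25 (adjusted p of 0.562, 0.445, 0.342 and 0.242, edgeR).

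Within pairs of the same number GSTO1 was higher in 3 of 3 pairs in each of these 4 comparisons. Both treatments of a line share its untreated samples, so these pairs are not independent. In the same order the log2 ratios ran from 0.135 to 0.412, 0.128 to 0.496, 0.428 to 0.707 and 0.322 to 0.697. The standard errors with the block rest mostly on spread pooled over genes, not on these 3 ratios. With the block the standard errors fell to between 0.06 and 0.10 and the values were 0.28, 0.26, 0.51 and 0.47, each with an adjusted p under 0.05 (2.57e-05, 0.00265, 4.61e-05 and 5.74e-05, edgeR) and none at the fold limit. The fit without replicate 1 of H2O2-treated NRF2 ΔC cells made GSTO1 a DEG at 0.67 (adjusted p = 0.0389, edgeR). The interactions were -0.24 ± 0.38 for NACET and -0.24 ± 0.36 for H2O2 without the block, and -0.23 ± 0.10 and -0.22 ± 0.12 with it (adjusted p of 0.448 and 0.277 with the block, edgeR).

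GSTA4, the alpha class enzyme that conjugates hydroxynonenal from lipid peroxidation, had 9.60, 6.65 and 5.97 CPM in untreated control cells and 5.71, 5.25 and 4.95 CPM with H2O2, so that all H2O2 samples lay below all untreated ones. NRF2 ΔC cells had 7.70, 4.81 and 6.82 CPM untreated and 5.91, 2.98 and 4.18 CPM with H2O2, and these overlapped. The log2 fold change with H2O2 was -0.48 ± 0.20 in control cells and -0.59 ± 0.29 in NRF2 ΔC cells (adjusted p of 0.145 and 0.205, edgeR). It was lower in 3 of 3 pairs in both lines. With the block the values were -0.46 ± 0.13 (adjusted p = 0.0085, edgeR) and -0.61 ± 0.17 (adjusted p = 0.00225, edgeR), the second of which was a DEG, as were 18.7 % of genes. The sample numbered 1 had the highest GSTA4 in all 6 groups. With NACET the GSTA4 values were 0.18 ± 0.24 and -0.25 ± 0.26 on the log2 scale in control and clone, and the interaction was 0.43 ± 0.38 (adjusted p = 0.9999, edgeR).

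GSTZ1, the zeta class isomerase of tyrosine breakdown, ranged from 12.3 to 22.1 CPM, and GSTK1 from 55.7 to 74.8 CPM. GSTZ1 had 18.3, 18.8 and 18.7 CPM in untreated control cells and 14.0, 16.1 and 17.6 CPM with NACET, all below the untreated ones. The log2 fold change was -0.21 ± 0.12 (adjusted p = 0.341, edgeR), and with the block -0.22 ± 0.09 (adjusted p = 0.0436, edgeR). NRF2 ΔC cells had 18.4, 16.4 and 17.5 CPM untreated, 12.3, 16.5 and 14.7 CPM with NACET and 17.7, 22.1 and 21.7 CPM with H2O2. The GSTK1 fold changes lay between -0.17 and 0.04 on the log2 scale in all 9 comparisons of groups.

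By edgeR 0 of the 10 members were DEGs in NRF2 ΔC cells, with NACET (1.39 % of 13542 genes) or with H2O2 (9.81 % of 13543 genes). DESeq2 also made 0 calls, and 0 members had an unadjusted p under 0.05 in either comparison, beside 18.6 % and 29.7 % of all genes. By the adjusted p alone and with the block, 4 of 10 members passed with NACET in control cells, beside 40.7 % of all genes. They were MGST1, GSTM3 and GSTO1, all higher, and GSTZ1, lower. With H2O2 in control cells 6 of 10 passed, beside 48.7 %, MGST1 and GSTO1 higher and GSTA4, GSTK1, GSTM4 and MGST3 lower. In NRF2 ΔC cells 4 of 10 passed with each treatment, beside 34 % and 46.5 %. With NACET these were GSTO1 and MGST1, higher, and GSTM4 and GSTZ1, lower. With H2O2 they were GSTO1 and GSTP1, higher, and GSTA4 and GSTM4, lower. For NACET against H2O2 with the same block 6 of 10 members passed in control and 3 of 10 in NRF2 ΔC cells, beside 41.5 % and 50.2 %. In control cells GSTA4, GSTM3, GSTM4, MGST1, MGST2 and MGST3 were higher with NACET. In NRF2 ΔC cells MGST3 was higher, and GSTP1 and GSTZ1 were lower. All these shares of members are to be read against those of all genes, which were of the same order.

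**Figure D5:**
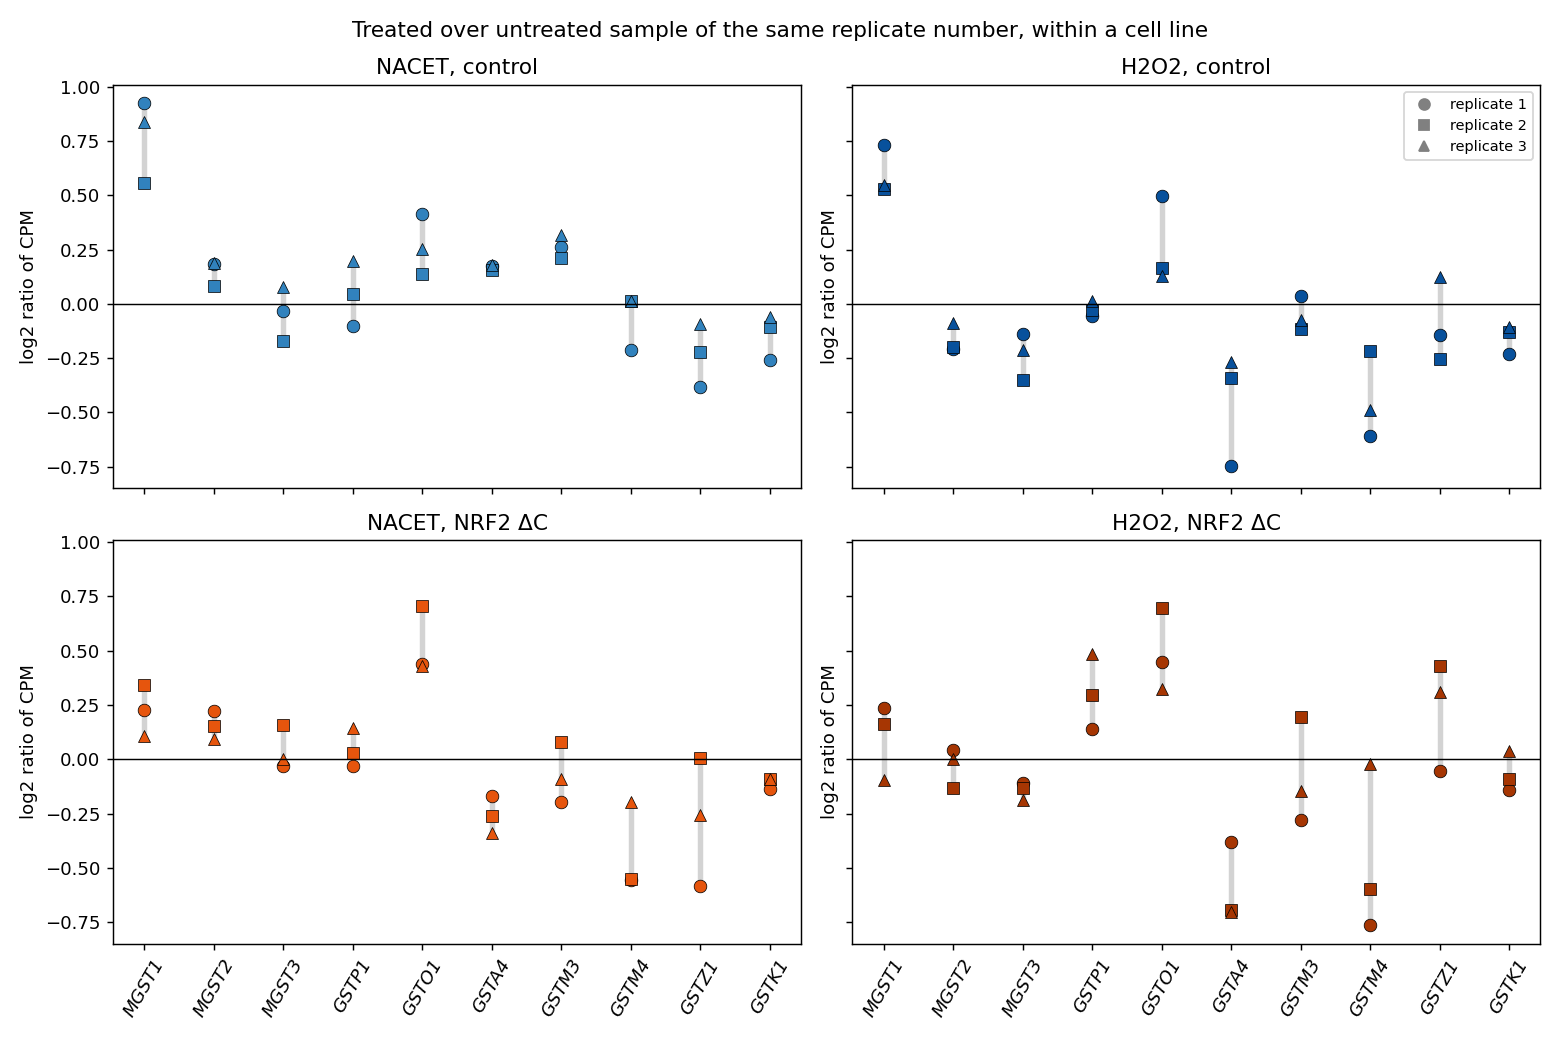
Log2 ratio of CPM between the treated and the untreated sample of the same replicate number (y axis) for each member (x axis), with a symbol per number and a grey bar over the range. GSTO1 lay above 0 in all 12 pairs and MGST1 above 0.5 in all 6 pairs of control cells, while the MGST1 pairs of NRF2 ΔC cells lay from -0.09 to 0.34. The NACET and H2O2 pairs of a line share its untreated samples, so these pairs are not independent.

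The treatments were also compared with each other, at 1 mM NACET and 0.2 mM H2O2, doses that differ. These comparisons share their samples with those above. In control cells 0 of 10 members were DEGs of NACET against H2O2 by edgeR or by DESeq2, beside 3.67 % of 13581 genes. An unadjusted p under 0.05 was found for 4 members and for 23.4 % of all genes. Of the members 9 were higher with NACET and 1 lower, with a median log2 fold change of 0.20 beside 0.01 over all genes. GSTA4 had the largest value at 0.67 ± 0.20, and GSTM4 followed at 0.40 ± 0.11, MGST2 at 0.34 ± 0.12 and GSTM3 at 0.34 ± 0.08 (adjusted p of 0.0953, 0.0844, 0.138 and 0.0572, edgeR). MGST1 differed by 0.19 ± 0.10 between the treatments (adjusted p = 0.291, edgeR).

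With the block GSTA4 was a DEG of NACET against H2O2 in control cells at 0.65 ± 0.13 (adjusted p = 0.00136, edgeR), as were 7.5 % of genes. In NRF2 ΔC cells 0 of 10 members were DEGs by edgeR or by DESeq2, beside 8.31 % of 13489 genes, and 1 had an unadjusted p under 0.05, as had 26.7 % of all genes. That member was GSTZ1, lower with NACET than with H2O2 by -0.48 ± 0.16 on the log2 scale and in 3 of 3 pairs (adjusted p = 0.109, edgeR).

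Around the transferases stand the genes that supply glutathione, export its conjugates and process them to mercapturates. Of 6 supply genes 4 were DEGs with NACET in control cells, all higher, beside 2.75 % of all genes. They were SLC7A11 (2.67 ± 0.17), the cystine carrier, GCLM (2.04 ± 0.18) and GCLC (0.71 ± 0.10), the subunits of glutamate-cysteine ligase, and GSR (1.07 ± 0.11), which regenerates glutathione from its disulphide (adjusted p from 0.00136 to 0.017, edgeR). Their changes on the log2 scale stand beside 0.78 for MGST1, and their median over the 6 genes was 0.89, against 0.11 over the 10 transferases. With H2O2 in control cells, where 6.33 % of all genes were DEGs, 4 of the 6 were DEGs and higher, SLC7A11 (2.62 ± 0.23), GCLM (1.58 ± 0.25), SLC3A2 (0.87 ± 0.10), the partner chain of SLC7A11, and GSR (0.75 ± 0.11).

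With H2O2 in NRF2 ΔC cells, beside 9.81 % of all genes, 2 of the 6 were DEGs, SLC7A11 (2.53 ± 0.24) and SLC3A2 (1.54 ± 0.25). With NACET 0 of 6 were DEGs there by edgeR, although 4 had an unadjusted p under 0.05, as had 18.6 % of all genes, and DESeq2 called 2. With the block 3 of 6 were DEGs of NACET in NRF2 ΔC cells, GCLM (0.69 ± 0.10), SLC3A2 (0.70 ± 0.07) and SLC7A11 (0.74 ± 0.12), beside 8.82 % of all genes. Against control cells 1, 4 and 3 of the 6 were lower DEGs in NRF2 ΔC cells untreated, with NACET and with H2O2, and SLC7A11 was among them in each (-1.05 ± 0.20, -2.95 ± 0.28 and -1.13 ± 0.24). The shares of all genes that were lower DEGs there were 3.12 %, 3.86 % and 4.2 %.

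Of 8 conjugate exporters, ABCC3 was a DEG in control cells with NACET (1.79 ± 0.12, adjusted p = 0.00136, edgeR) and with H2O2 (0.77 ± 0.18, adjusted p = 0.0312, edgeR), beside 2.75 % and 6.33 % of all genes. It was lower in NRF2 ΔC cells under NACET (-1.71 ± 0.12) and H2O2 (-1.29 ± 0.20), where 3.86 % and 4.2 % of genes were lower DEGs. ABCC2 was a DEG with H2O2 in control cells (1.36 ± 0.34) at 0.637 ± 0.0933 CPM. ABCG2 was lower in untreated NRF2 ΔC than in control cells (-1.87 ± 0.39), where 3.12 % of genes were lower DEGs. DESeq2 called 1 exporter with H2O2 in control cells, where edgeR called 2. With NACET in NRF2 ΔC cells DESeq2 called 2 and edgeR without the block 0. With the block the exporters ABCG2 (0.84 ± 0.21) and ABCC6 (-0.73 ± 0.30) were also DEGs of NACET in control cells, beside 7.49 % of all genes. In NRF2 ΔC cells ABCC3 (0.65 ± 0.11) and ABCG2 (1.65 ± 0.35) then were DEGs of NACET and ABCG2 (1.31 ± 0.35) of H2O2, beside 8.82 % and 18.7 % of all genes.

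Of 13 mercapturate genes 4 or 5 passed the filter in each comparison. Without the block 0 of them were DEGs by edgeR or by DESeq2 in any of the 9 comparisons of groups, with at most 1 at an unadjusted p under 0.05. With the block up to 3 had an unadjusted p under 0.05. GGT1, which cleaves glutathione and its conjugates outside the cell, was then a DEG of H2O2 in NRF2 ΔC cells (1.43 ± 0.44, adjusted p = 0.00451, edgeR), as were 18.7 % of all genes. Its level was near the floor, at most 21 counts and 0.959 CPM in any sample. Of 17 other transferases and relatives 9 were tested, and GSTM2 was the only one that was a DEG between the lines without the block. Of all genes 3.12 %, 3.86 % and 4.2 % were lower DEGs there untreated, with NACET and with H2O2. ALOX5AP in control cells (1.42 ± 0.27) and GSTCD in NRF2 ΔC cells (0.69 ± 0.16) were higher with NACET than with H2O2, beside 3.67 % and 8.31 % of all genes. From the other lists ABCC3 was also a higher DEG in both of these comparisons, and SLC7A11 a lower DEG in NRF2 ΔC cells. With the block ALOX5AP was also a lower DEG of H2O2 in control (-1.28 ± 0.26) and NRF2 ΔC cells (-0.90 ± 0.32), and GSTM2 in NRF2 ΔC cells (-0.64 ± 0.17). Of all genes 10.2 % and 18.7 % were DEGs of H2O2 in control and NRF2 ΔC cells in these fits. For NACET against H2O2 in NRF2 ΔC cells the block added ALOX5AP (0.87 ± 0.30) and GSTT2 (0.88 ± 0.24), beside 15.5 % of all genes. Both had low levels over the samples, 0.384 to 3.42 CPM for ALOX5AP and 0.88 to 2.83 CPM for GSTT2.

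Genes with a pattern like that of a member were sought among 12285 genes with at least 1 CPM in all group means, by the root mean square distance of the 6 centred group means of log2 CPM. Among the nearest to MGST1 were PANX2 (0.16) and FTL (0.17), where the pattern of MGST1 itself has a root mean square of 0.81. Nearest to GSTM4 were CKMT2 (0.04), MYL9 (0.12) and DPP4 (0.12), with 0.79 for GSTM4. Nearest to GSTM3 were FLJ43663, RASSF5 and TRIM47 (0.09 each), with 0.32 for GSTM3. These distances are descriptions over 6 group means from the same libraries.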

How the data were processed

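The authors mapped single-end reads of 18 mRNA libraries to hg19 with TopHat2 2.1.0 and counted them per gene symbol with HTSeq 0.11.2, without strand. The deposited values are raw counts. The summary lines were left out, namely reads on no gene (15.0 to 17.5 % of a library), those mapped to several places (8.24 to 10.4 %) and ambiguous ones (0.955 to 1.18 %). The gene annotation is not given in the sources used here.

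Each comparison used edgeR 4.0.16 (R 4.3.3) on its 3 + 3 samples, with filterByExpr, TMM and the quasi-likelihood test, adjusted over all genes tested. Standard errors were derived from that test, as the size of the log2 fold change divided by the square root of its F statistic. Interactions used 12 samples and the adjusted p alone. Alternatives were DESeq2 1.42.0, other normalisations and filters, 1 fit of all samples, a replicate block, leaving out each sample and summed GSTM rows. The NACET comparison in control cells and the NACET interaction were tried on simulated counts, without the block. Those counts held no shared deviation of same-numbered samples, so they do not cover the fits with the block. Same-numbered samples deviated together within a line (r from 0.471 to 0.874 over 11007 genes), and between lines numbers 1 and 3 did (0.593 to 0.777) and number 2 did not (-0.259 to -0.039). The labels give the numbers and do not say that samples were separate cultures, so p-values rest only on the spread between these samples, which may be technical. The quasi-likelihood test also shares this spread between genes. With the block, 3 + 3 samples leave little of a gene's own spread. Those standard errors and p-values therefore rest mostly on spread pooled over genes.

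All 10 members are named. From the other lists, at most 4 DEGs per list and comparison are named, those with the largest fold change, plus NFE2L2, NQO1 and the 3 nearest genes to MGST1 and to each member that was a DEG, of which 1 is not reported here. The members and lists were chosen with earlier results of these data known.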

Additional observations from a re-analysis of the deposited data

Results flagged for a closer look

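MGST1 differed between the cell lines in its response to both treatments when the replicate number within each line was used as a block. The log2 fold change was larger in control than in NRF2 ΔC cells by 0.58 for NACET and by 0.51 for H2O2, and the test of the difference itself passed in both cases. Without the block neither difference passed. MGST1 was not alone, as 0.9 % and 6.91 % of all genes passed these tests with the block. For NACET they included the supply genes GCLM, GSR and SLC7A11 and the exporter ABCC3. For H2O2 they included GCLM, GSR and ABCC3, and SLC3A2 in the other direction. Without the block edgeR called 0 genes of these 2 lists, and for NACET DESeq2 called 3 supply genes and 1 exporter.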

How the results depend on the processing

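DESeq2, RLE and upper-quartile normalisation, both other filters and the single fit of all samples changed no count of members called. With the replicate block the count became 1 for H2O2 in control cells (MGST1), 1 for H2O2 in NRF2 ΔC cells (GSTA4), 1 for NACET against H2O2 in control cells (GSTA4) and 1 in each interaction (MGST1), from 0 each, and it changed no other call of the comparisons within a line. Between the lines, where same-numbered samples deviated together for numbers 1 and 3 and not for number 2, it made GSTA4 a DEG with NACET (-0.65). By the adjusted p alone the count was 1 for H2O2 in control cells and 3 between the lines with H2O2 (GSTM3 added). By the adjusted p alone with the block, chosen after seeing the data, 6 and 3 members passed for NACET against H2O2 in control and NRF2 ΔC cells. Leaving out 1 sample gave 0 to 1 members for either treatment in control cells and for H2O2 in NRF2 ΔC cells, and, between the lines, 1 to 3 untreated and 2 to 3 with NACET. The cause of these changes was not tested, and the fits that left out 1 sample also had fewer samples. Of 110 fold changes 47 were smaller than their standard error, and 37 of these changed sign in some alternative. The 63 larger ones kept their direction in all alternatives. The length behind the levels per kilobase, also added later, moved 58 of 60 levels. GSTA4 and GSTM4 have the fewest counts, 53 to 323 in a sample, and 3 samples per group limit all tests.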

Other observations

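Several relatives of the 10 members were at or near 0. GSTA1 had at most 2 counts in any sample, GSTA2, GSTM5 and HPGDS at most 1, LTC4S at most 4, and GSTA3, GSTA5 and GSTT2B were listed at 0 in all samples. PTGES, a microsomal prostaglandin synthase related to the MGST family, ranged from 206 to 333 CPM, GSTT1 from 14.9 to 22.4 CPM and GSTO2 from 8.88 to 16.3 CPM.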
